A study of Caenorhabditis elegans with 6 samples.

Results

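Argonaute proteins carry small RNAs and are guided by them to complementary transcripts. In *Caenorhabditis elegans* the family is large, and its members divide the work: some bind microRNAs and set the timing of development in the soma, one binds the piRNAs of the germline, some bind the first siRNAs made from double-stranded RNA, and the worm-specific WAGO clade binds the secondary siRNAs that RNA-dependent RNA polymerases copy from a target. Germline Argonautes gather in P granules, the RNA-rich condensates on the outer face of germ cell nuclei, and nuclear ones carry silencing to chromatin. The transcripts of 10 Argonaute genes, chosen by name, were followed here, of 23470 genes listed in either of the 2 deposited tables and 21498 listed in both. All 10 were in both tables and all 10 passed the filter on low values in every comparison.

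RNA came from whole worms on day 1 of adulthood, with 2 libraries in each of 3 groups. The *hlh-30* overexpression group (*hlh-30* ox) and the *hlh-30* knockout group (*hlh-30* ko) were both labelled as derivatives of the Aβ strain GMC101, and the control group was GMC101 itself, labelled WT. By these labels all groups carried the transgene that makes human Aβ in body wall muscle from the *unc-54* promoter, with an intestinal GFP marker from the *mtl-2* promoter. In the study's own description the overexpression construct was *hlh-30* fused to GFP under its own promoter, and the knockout allele was *hlh-30*(syb6883), which lacks the first exons of the gene. The worms were held at 25°C for 24 h to induce Aβ. The design text of the series names the Aβ strain CL4176 in place of GMC101. The study lists a *rol-6* marker plasmid for CL4176, for its overexpression strain, and for a GMC101-based overexpression strain that also carries an *lgg-1* reporter. It lists no such plasmid for GMC101 or for the GMC101-based overexpression strain without that reporter. The cuticle collagen gene *rol-6* had 1030 and 1012 normalized reads in *hlh-30* ox, against 31.7 and 14.2 in control (log2 fold change 5.52, SE 0.28, adjusted p = 6.59e-07 from limma). In *hlh-30* ko it had 15.3 and 39.8. The *hlh-30* ox libraries thus differed from control in more than *hlh-30*, and what came with the strain and what came with *hlh-30* cannot be told apart. Nothing in the labels says that 2 libraries of a group came from separate cultures. The SEs and p-values of limma thus rest on the spread between these libraries, shared in part across genes. This spread may be technical. The libraries held from 18097960 to 19300834 reads on genes. The targeted gene had 6022 and 5693 normalized reads in *hlh-30* ox, against 3102 and 3315 in control (log2 fold change 0.87, SE 0.06, adjusted p = 3.97e-06 from limma). In the libraries labelled *hlh-30* ko it had 2104 and 3005, against 3049 and 3258 in control (log2 fold change -0.33, SE 0.17, adjusted p = 0.511 from limma), so both were lower but the difference was not called. Reads summed over the whole gene include exons outside the deletion and do not check the knockout, and directions drawn from those libraries rest on their labels.

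The 10 genes were transcribed at very different levels, compared here as normalized reads per kilobase of gene length on 1 scale for all 6 libraries. *wago-1*, which encodes a germline WAGO of P granules that silences transposons and other foreign sequence, was the highest, with 4048 and 4195 per kilobase in *hlh-30* ox, 4985 and 3968 in *hlh-30* ko, and 4664 and 4547 in control. In control, *prg-1*, which encodes the Piwi protein that binds piRNAs, followed with 3298 and 3156 per kilobase. *hrde-1*, which encodes the nuclear germline Argonaute of inherited silencing, was close to it with 3150 and 3056. *csr-1*, whose product binds siRNAs against transcripts expressed in the germline, had a control mean of 2149 per kilobase, *ergo-1* of 1885 and *wago-4* of 1134. The microRNA Argonaute genes were lower, with control means of 530 per kilobase for *alg-1* and 448 for *alg-2*. *rde-1*, which encodes the Argonaute that takes up siRNAs from introduced double-stranded RNA, had 426 per kilobase. *nrde-3*, which encodes the nuclear Argonaute of somatic cells, was the lowest with 219. In this order only *alg-2* and *rde-1* overlapped as neighbours in the control libraries. Set beside 14993 genes with at least 10 normalized reads in both control libraries, *wago-1* was above 97.6% of them per kilobase and *nrde-3* above 50.5%.

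**Figure D1:**
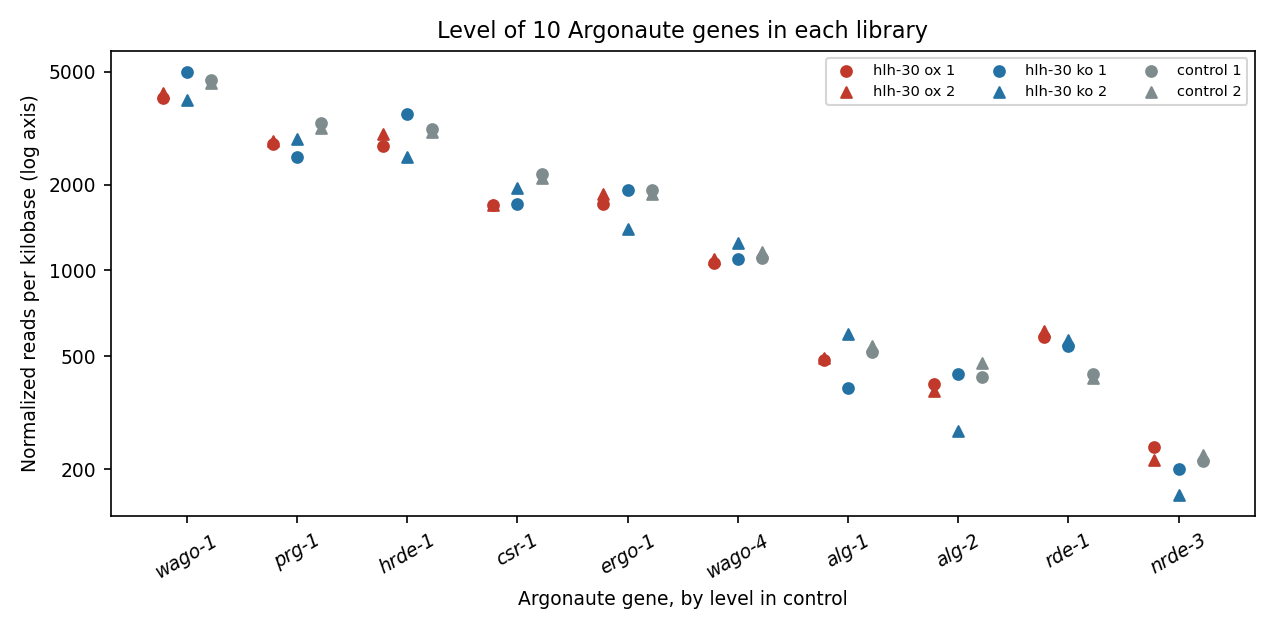
Normalized reads per kilobase of gene length (log axis) of the 10 Argonaute genes in each of the 6 libraries, ordered by the control mean. Circles are the first and triangles the second library of a group. *wago-1* lies between 3968 and 4985 in every library and *nrde-3* between 163 and 239, and *rde-1* is the only gene in which all 4 libraries of the modified strains lie above both control libraries.

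In *hlh-30* ox worms, 4 of the 10 genes changed past an adjusted p of 0.05: *csr-1*, *prg-1* and *wago-1* fell and *rde-1* rose. Of all 15918 genes tested in this comparison, 14.8% passed, 6.71% higher and 8.06% lower. No member reached a 2-fold change, which 1.86% of all genes did with an adjusted p under 0.05. The median log2 fold change was -0.12 over the 10 genes and -0.0016 over all genes tested, and 8 of the 10 lay below 0, against 50.2% of all genes. The 2 groups did not overlap in 8 of the 10 genes, against 57.4% of all genes tested: 7 were lower, against 29.4% of all genes, and 1 was higher, against 27.9%. At an unadjusted p under 0.05 the count was 5 of 10, against 28.9% of all genes.

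*csr-1* (F20D12.1, chromosome IV, 7957267 to 7962157 on the plus strand of WBcel235, with 3 annotated transcripts) had 6012 and 6033 normalized reads in *hlh-30* ox, against 7742 and 7494 in control. The 2 groups did not overlap, and each pair of libraries was close together. The log2 fold change was -0.34 (SE 0.05, adjusted p = 0.00106, by limma and the Benjamini-Hochberg method across the 15918 genes). The reads of *csr-1* cover both protein forms of the gene, a longer one and a shorter one, and do not separate them. *prg-1* (D2030.6, chromosome I, 7585329 to 7588367 on the minus strand) had 7414 and 7592 normalized reads in *hlh-30* ox, against 8805 and 8406 in control. Again the groups did not overlap, with a log2 fold change of -0.20 (SE 0.05, adjusted p = 0.0197 from limma). *wago-1* (R06C7.1, chromosome I, 7235384 to 7238792 on the plus strand) had 12380 and 12779 in *hlh-30* ox, against 14253 and 13862 in control. Its log2 fold change was the smallest of those called, -0.16 (SE 0.05, adjusted p = 0.0384 from limma), and edgeR and DESeq2 on the recovered reads gave adjusted p-values of 0.0532 and 0.0575.

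*rde-1* (K08H10.7, chromosome V, 9987916 to 9991642 on the minus strand) went the other way. It had 1873 and 1972 normalized reads in *hlh-30* ox, against 1397 and 1342 in control, a log2 fold change of 0.49 (SE 0.07, adjusted p = 7.93e-04 from limma). *rde-1* is needed for RNAi by feeding or injection and is dispensable for the microRNA pathway. The 4 calls were lost when limma was run with no filter on low values, without its mean trend or with all 6 libraries in one fit, each of which called 0 of the 10 genes and at most 0.0799% of all genes. The calls were also lost when either control library was left out. The lone control library is there taken to vary as the *hlh-30* ox libraries do, so p-values of that fit are not given. The log2 fold change of *csr-1* stayed between -0.36 and -0.32 and that of *rde-1* between 0.45 and 0.53 with each library left out.

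The other 6 genes did not pass. The microRNA Argonaute gene *alg-1* (F48F7.1, chromosome X, 13949110 to 13956261) had 2403 and 2437 normalized reads in *hlh-30* ox, against 2576 and 2687 in control (log2 fold change -0.12, SE 0.06, adjusted p = 0.211 from limma). Its partner *alg-2* (T07D3.7, chromosome II, 873212 to 879885) had 1294 and 1222, against 1373 and 1531 in control (log2 fold change -0.21, SE 0.08, adjusted p = 0.0989 from limma). Both were lower without overlap, at a size that the test did not call. *hrde-1* (C16C10.3, chromosome III, 4172337 to 4176159) had 9689 and 10624, against 11146 and 10784 in control (log2 fold change -0.11, SE 0.05, adjusted p = 0.198 from limma). *wago-4* (F58G1.1, chromosome II, 12919551 to 12923377), whose product passes RNAi on to the progeny, had 3559 and 3642, against 3680 and 3878 in control (log2 fold change -0.07, SE 0.06, adjusted p = 0.465 from limma). The groups overlapped in the remaining pair of genes. *ergo-1* (R09A1.1, chromosome V, 1008803 to 1018352), whose product binds primary siRNAs against duplicated genes, had 6258 and 6758, against 7033 and 6757 in control. *nrde-3* (R04A9.2, chromosome X, 372235 to 376900) had 825 and 742, against 736 and 770 in control.

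**Figure D2:**
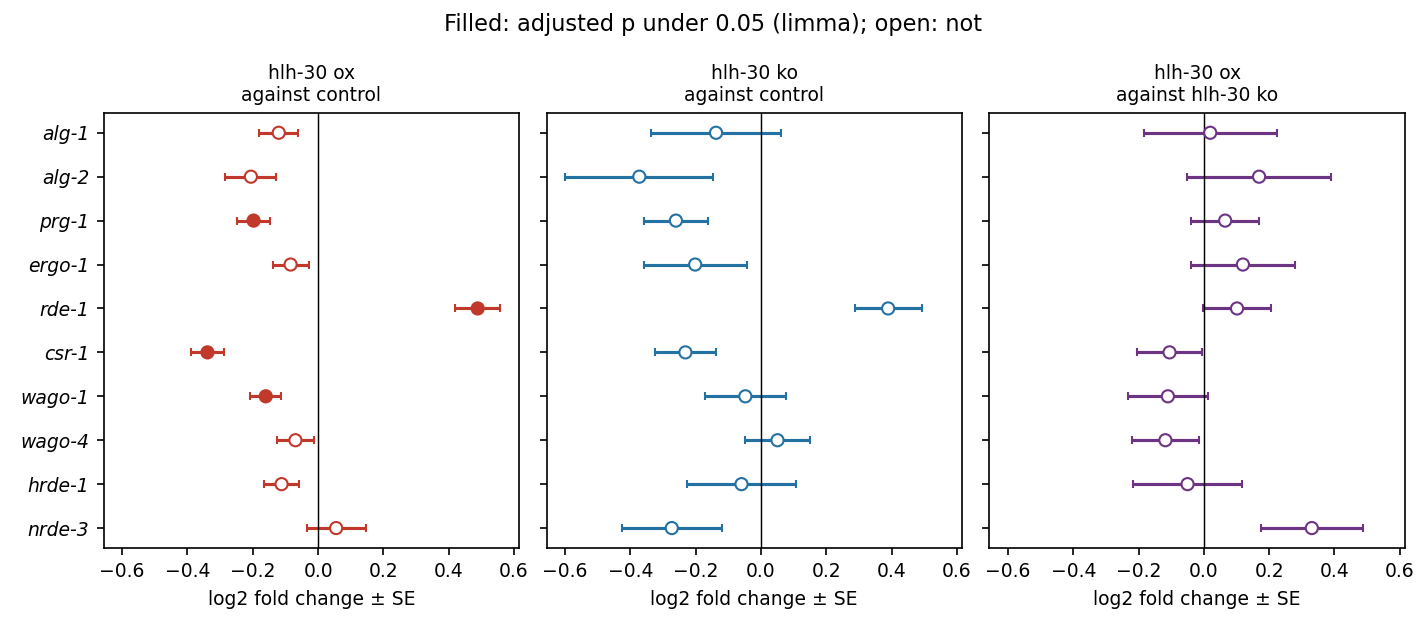
Log2 fold change of each gene with its standard error in *hlh-30* ox against control (left), *hlh-30* ko against control (middle) and *hlh-30* ox against *hlh-30* ko (right); filled points had an adjusted p under 0.05 in limma. In the left panel *csr-1* (-0.34), *prg-1* (-0.20) and *wago-1* (-0.16) are filled below 0 and *rde-1* (0.49) above it, and the middle and right panels have only open points with wider bars.

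In worms labelled *hlh-30* ko, 0 of the 10 genes passed in limma, in edgeR or in DESeq2. Of the 15749 genes tested, limma passed 0.0127%, 0.00635% higher and 0.00635% lower. edgeR passed 0.0127% and DESeq2 0.756% of them. At an unadjusted p under 0.05 there were 3 of 10, against 11% of all genes: *rde-1*, *prg-1* and *csr-1*. *rde-1* had 1727 and 1801 normalized reads in *hlh-30* ko, against 1373 and 1319 in control (log2 fold change 0.39, SE 0.10, adjusted p = 0.398 from limma). *prg-1* had 6584 and 7568, against 8654 and 8261 in control (log2 fold change -0.26, SE 0.10, adjusted p = 0.445 from limma). *csr-1* had 5993 and 6785, against 7609 and 7365 in control (log2 fold change -0.23, SE 0.09, adjusted p = 0.455 from limma). These values stand on the same side of control as those of *hlh-30* ox, but both comparisons use the same 2 control libraries, so the match of sign is no independent evidence. The groups were also apart in *nrde-3*, with 683 and 549 in *hlh-30* ko, against 723 and 757 in control (log2 fold change -0.27, SE 0.15, adjusted p = 0.525 from limma). In all, 4 of the 10 genes were apart, against 45.7% of all genes tested: 3 were lower, against 23.4%, and 1 was higher, against 22.4%.

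The knockout libraries differed from each other more than the control libraries did in 10 of the 10 genes, and in 68.8% of all genes tested. The median absolute log2 difference between 2 libraries of a group, over the 10 genes, was 0.33 in *hlh-30* ko, 0.060 in *hlh-30* ox and 0.060 in control, and over all genes tested it was 0.29, 0.14 and 0.14. The division ran through the family. In the first knockout library of the table *alg-2*, *hrde-1*, *ergo-1*, *wago-1* and *nrde-3* were higher than in the second, and *alg-1*, *prg-1*, *csr-1*, *wago-4* and *rde-1* were lower. The microRNA Argonaute genes moved against each other: *alg-1* had 1901 and 2906 normalized reads in *hlh-30* ko, against 2531 and 2641 in control. *alg-2* had 1394 and 869, against 1349 and 1505 in control. *hrde-1* had 12349 and 8656, against 10954 and 10598 in control, and *wago-1* had 15055 and 11863, against 14007 and 13623. *ergo-1* had 6935 and 5005, against 6912 and 6641 in control. *wago-4* had 3627 and 4076, against 3616 and 3811 in control. The 2 knockout libraries lay outside the control pair on opposite sides in 4 of the 10 genes (*alg-1*, *ergo-1*, *hrde-1* and *wago-1*), as in 22.7% of all genes tested.

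With the first knockout library left out, limma called 7 of the 10 genes and 25.9% of all genes tested. With the second left out it called 5 of the 10 and 17.6% of all genes. The lone knockout library is there taken to vary as the controls do. The direction turned with the library left out in *alg-1* (log2 fold change from -0.44 to 0.17), *hrde-1* (from -0.32 to 0.20), *wago-1*, *wago-4* and *ergo-1*. The sign held for *rde-1* (0.36 to 0.42), *prg-1* (-0.36 to -0.16), *csr-1* (-0.32 to -0.14), *alg-2* and *nrde-3*. Marker lists of several cell types moved with this division. All 14 oocyte markers were higher in the first knockout library than in the second (median log2 difference 0.58), and their sum was 186303 and 130012 normalized reads in *hlh-30* ko, against 164020 and 160555 in control. Of 10 hypodermis markers, which include collagens of the cuticle, 9 were lower in the first knockout library (median log2 difference -1.02), with sums of 35961 and 50902 in *hlh-30* ko, against 48473 and 46310 in control. Of 11 intestine markers 9 were higher in the first (median 0.38), with sums of 491554 and 350794 in *hlh-30* ko, against 466943 and 522464 in control. Most of the control sum was the yolk protein gene *vit-2*. Scaled with *hlh-30* ox, *vit-2* had 373864 and 424660 of 475134 and 531605 normalized reads in control. Of 13 sperm markers 10 were lower in the first (median -0.27), and of 16 P granule and Z granule genes 12 were higher (median 0.21). Medians were smaller for body wall muscle (5 higher and 5 lower, 0.02), germline (9 and 5, 0.13) and neuron markers (4 and 8, -0.07). Of the embryo markers 5 were higher and 3 lower (median 0.49). The share of all genes higher in the first library was not computed, so these counts have no background beside them. The part of these lists in the Argonaute values was not tested.

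**Figure D3:**
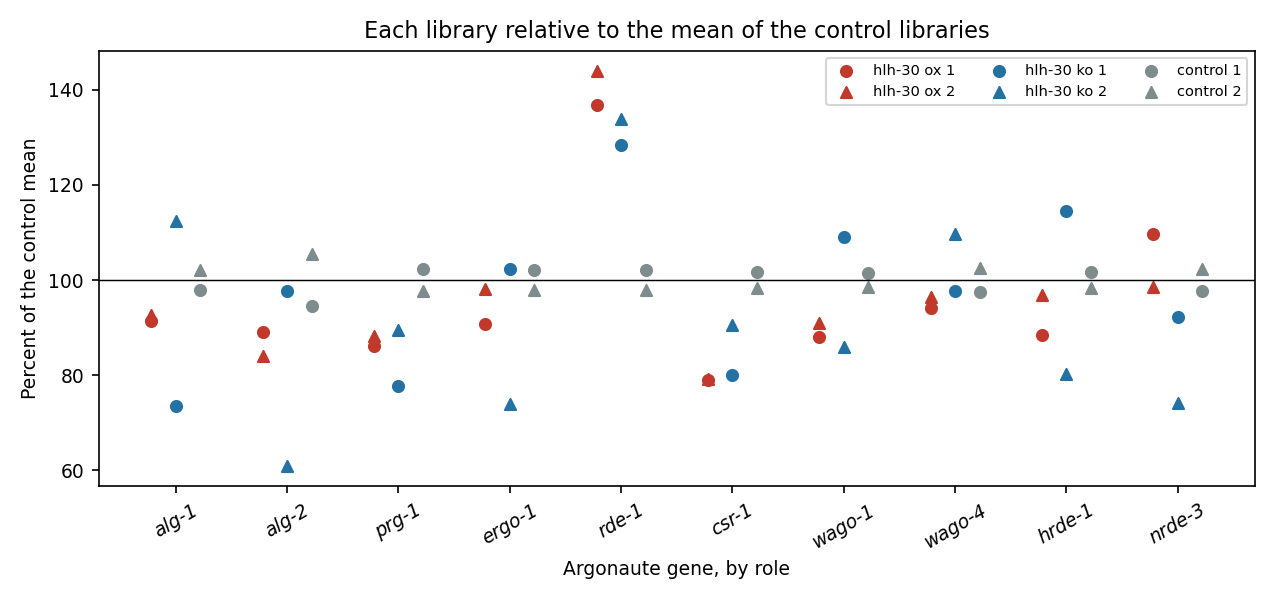
Normalized reads of each Argonaute gene in each library as a percent of the mean of the control libraries in the same table; circles are the first and triangles the second library of a group. The *hlh-30* ox pair sits close together for most genes, and the *hlh-30* ko pair is spread widely, with *alg-1* at 1901 and 2906 reads and *alg-2* at 1394 and 869.

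Set directly against each other on 1 scale, *hlh-30* ox and *hlh-30* ko did not differ in any of the 10 genes past the threshold, with 0 of 10 called by limma, edgeR or DESeq2 and 0 of 10 at an unadjusted p under 0.05 in limma. Of the 15991 genes tested, limma called 0.0188%, edgeR 0.025% and DESeq2 0.988%, and 8.63% had an unadjusted p under 0.05 in limma. This comparison does not use the control libraries in the fit, though they enter the common scale. *nrde-3* had the largest difference, with 825 and 744 normalized reads in *hlh-30* ox, against 692 and 561 in *hlh-30* ko (log2 fold change 0.33, SE 0.16, adjusted p = 0.630 from limma). *rde-1* had 1873 and 1979 in *hlh-30* ox, against 1748 and 1841 in *hlh-30* ko, 0.10 higher on the log2 scale (SE 0.10, adjusted p = 0.869 from limma). *csr-1* had 6010 and 6055 in *hlh-30* ox, against 6067 and 6938 in *hlh-30* ko, with a log2 difference of -0.11 (SE 0.10, adjusted p = 0.853 from limma). The groups were apart in 4 of the 10 genes, *nrde-3* and *rde-1* higher and *csr-1* and *wago-4* lower, against 38.9% of all genes tested. Summed over the 10 genes, the normalized reads were 51687 and 53994 in *hlh-30* ox, 56940 and 51209 in *hlh-30* ko and 58759 and 57672 in control, which was between 0.280% and 0.307% of all reads in each library.

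A list of 13 further Argonaute genes was read beside the 10. Of these, 12 were tested in the *hlh-30* ox comparison, 2 rose and 5 fell, with a median log2 fold change of -0.25. Of all genes tested there, 6.71% rose and 8.06% fell with an adjusted p under 0.05 in limma. *prg-2*, a second Piwi gene closely related to *prg-1*, had 2913 and 3430 normalized reads in *hlh-30* ox, against 2123 and 2115 in control (log2 fold change 0.58, SE 0.08, adjusted p = 5.36e-04 from limma). *alg-3* and *alg-4*, a pair of related Argonaute genes that act during sperm formation, fell: *alg-3* had 760.1 and 767.7 in *hlh-30* ox, against 1315 and 993.2 in control, and *alg-4* had 861.9 and 913.6, against 1302 and 1070. Their log2 fold changes were -0.58 and -0.41 (adjusted p = 0.00468 and 0.0127 from limma). Of 13 sperm markers tested, 5 fell and 0 rose, with sums of 4863 and 5324 in *hlh-30* ox, against 7554 and 6258 in control. In whole worms, fewer cells of a type and less RNA per cell cannot be told apart. *wago-10* had 286.0 and 234.2, against 569.1 and 341.5 in control (log2 fold change -0.77, SE 0.20, adjusted p = 0.0202 from limma). The other called genes of this list were *ppw-2* (-0.24) and *vsra-1* (-0.30), which fell, and *wago-2* (0.35), which rose, in log2 fold change. They were named after their values were seen. *wago-5* had at most 3.17 normalized reads in any library and was not tested. In *hlh-30* ko, 0 of these 12 genes were called, and *prg-2* had 3251 and 2624 normalized reads, against 2086 and 2079 in control (log2 fold change 0.49, SE 0.13, adjusted p = 0.397 from limma).

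Reads of closely related genes are uncertain where an aligner cannot place them, so pairs were also summed. The pairs were chosen after their values were seen, and no test was made of them. *prg-1* and *prg-2* together had 10327 and 11021 normalized reads in *hlh-30* ox, against 10928 and 10521 in control, so the sum overlapped between groups (log2 fold change -0.0073). Within the sum, *prg-2* took 28.2% and 31.1% in *hlh-30* ox and 33.1% and 25.7% in *hlh-30* ko, against 19.4% and 20.1% in control. *wago-1* and *wago-2* together had 14881 and 15800 in *hlh-30* ox, against 16424 and 15994 in control, so this sum was lower without overlap (log2 fold change -0.08). *wago-2* took 16.8% and 19.1% of the pair in *hlh-30* ox and 16.8% and 15.9% in *hlh-30* ko, against 13.2% and 13.3% in control. In the microRNA pair *alg-2* took 35.0% and 33.4% of *alg-1* and *alg-2* in *hlh-30* ox and 42.3% and 23.0% in *hlh-30* ko, against 34.8% and 36.3% in control, so both modified strains overlapped control. Values of *drh-2*, *glh-1* and *glh-2*, given with the lists, are uncertain in the same way, since each has a close relative.

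**Figure D4:**
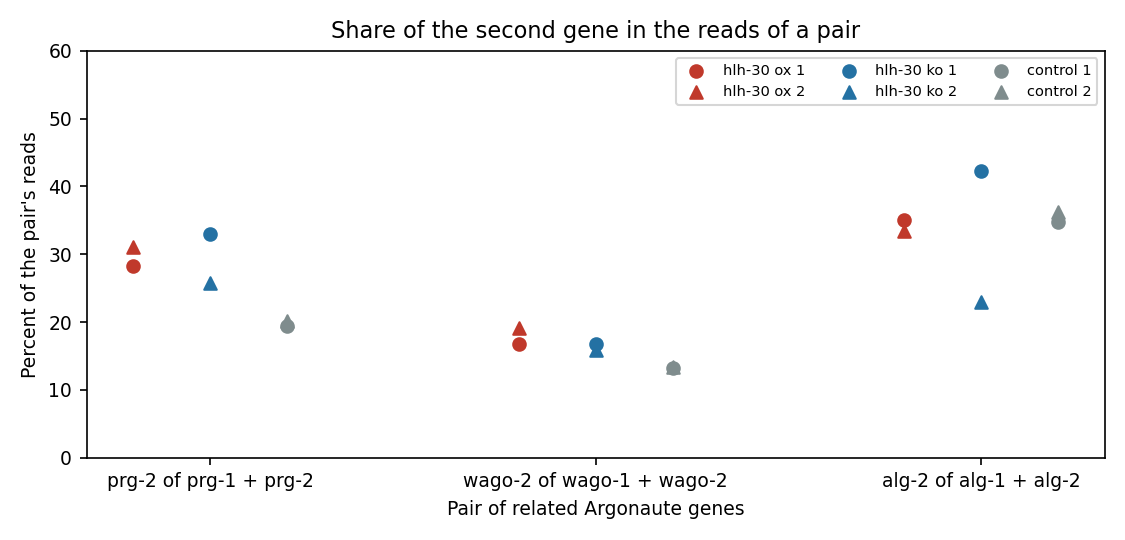
Share of the second gene in the summed normalized reads of 3 pairs of related Argonaute genes, in each library, in percent. *prg-2* takes 25.7% to 33.1% of its pair in the 4 libraries of the modified strains and 19.4% and 20.1% in control, while the share of *alg-2* overlaps between *hlh-30* ox and control.

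The machinery that makes and uses small RNAs was read from lists of gene names. The counts stand beside 6.71% of all genes that rose and 8.06% that fell in *hlh-30* ox. Among 19 microRNA pathway genes tested in the *hlh-30* ox comparison, 2 rose and 7 fell, with a median log2 fold change of -0.13. The 2 that rose cut the precursors: *drsh-1*, the Drosha nuclease, had 1673 and 1785 normalized reads in *hlh-30* ox, against 1282 and 1256 in control, 0.45 higher on the log2 scale (SE 0.07, adjusted p = 0.00154 from limma). *dcr-1*, the Dicer nuclease, had 3715 and 3737, against 2751 and 2789 in control, 0.43 higher on the log2 scale (SE 0.06, adjusted p = 5.68e-04 from limma). Among those that fell, *ain-2*, a GW182-type partner of ALG-1 and ALG-2, had a log2 fold change of -0.38, and *vig-1*, a part of the RNA-induced silencing complex, one of -0.35. *dcr-1* was also the called gene among 10 tested for the ERI complex, which makes the siRNAs that ERGO-1 binds. Of 17 genes of the mutator complex and RNA-dependent RNA polymerases, 1 rose and 1 fell. *rrf-1*, the polymerase that makes secondary siRNAs in the soma, had 1665 and 1708 normalized reads in *hlh-30* ox, against 1241 and 1228 in control (log2 fold change 0.45, adjusted p = 0.00125 from limma). *nyn-1*, a nuclease of that pathway, fell with a log2 fold change of -0.33.

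Of 16 P granule and Z granule genes tested, 9 fell and 0 rose with *hlh-30* ox, with a median log2 fold change of -0.24. For this and the next lists, 8.06% of all genes tested fell and 6.71% rose. The germline helicase genes *glh-4* (-0.34), *glh-2* (-0.33) and *glh-1* (-0.31) had the largest of these log2 fold changes, followed by *deps-1* (-0.30), which is needed for P granule assembly. *glh-1* had 7344 and 6703 normalized reads in *hlh-30* ox, against 8947 and 8428 in control. Of 19 piRNA pathway genes tested (the list named piRNA biogenesis), 5 fell and 0 rose (median -0.19). Among these were *pid-4* at -0.49, *prde-1*, needed to transcribe piRNA precursors, at -0.39, *pid-1* at -0.37 and *pid-3* at -0.29 on the log2 scale. Of 11 genes of nuclear RNAi and chromatin, 0 rose and 1 fell, *morc-1*, with a log2 fold change of -0.20. Of 13 genes of double-stranded RNA transport and antiviral defence, 2 rose and 1 fell. *drh-2*, a helicase gene related to the antiviral *drh-1*, had 1751 and 2360 normalized reads in *hlh-30* ox, against 1160 and 883.8 in control (log2 fold change 1.00, SE 0.13, adjusted p = 6.40e-04 from limma). *zfp-1* had a log2 fold change of 0.22 and *adr-1*, an RNA-editing enzyme gene, one of -0.29. In *hlh-30* ko and in *hlh-30* ox against *hlh-30* ko, 0 genes of these lists were called by limma.

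**Figure D5:**
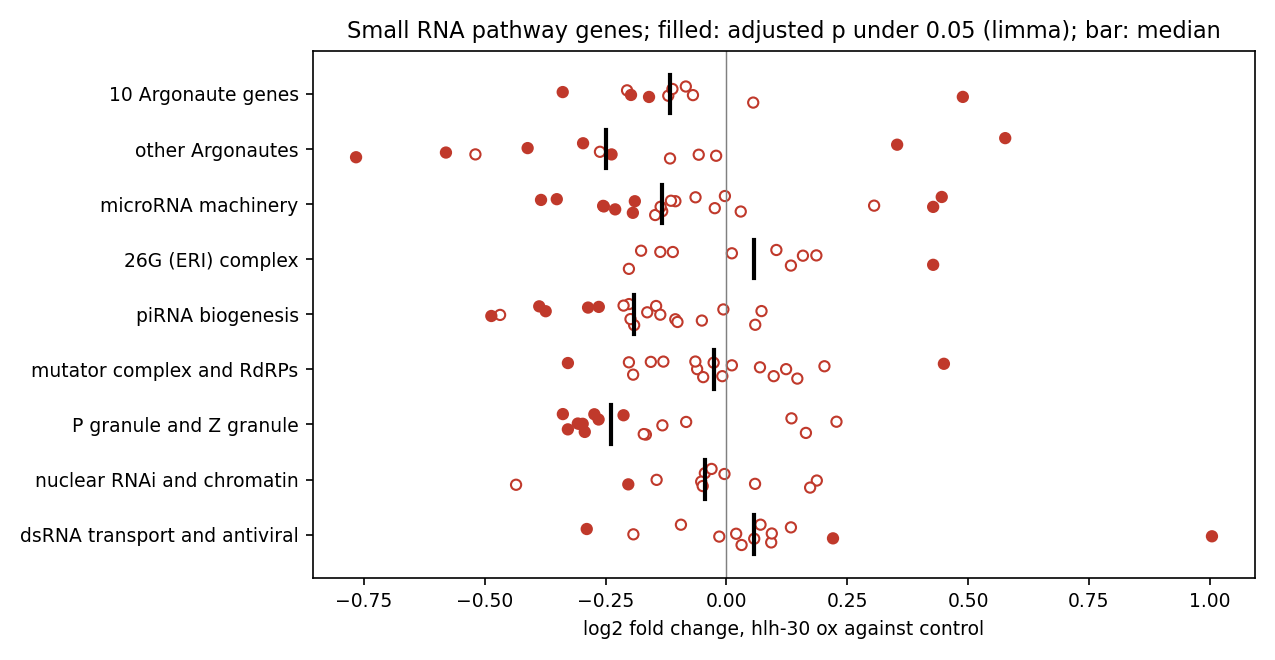
Log2 fold change of each tested gene in *hlh-30* ox against control, by list; filled points had an adjusted p under 0.05 in limma, and bars are medians. A gene can stand in 2 lists. The P granule and Z granule genes hold 9 filled points, all below 0, and *drh-2* at 1.00 is the rightmost point.

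Markers of cell types moved in the same libraries, in which 6.71% of all genes tested rose and 8.06% fell in *hlh-30* ox. In *hlh-30* ox, 3 of 14 germline markers and 3 of 14 oocyte markers fell and 0 rose, with medians of -0.07 and -0.09. The germline markers summed to 60610 and 61238 normalized reads in *hlh-30* ox, against 67316 and 64754 in control, and no germline marker was at 0 in any library. Of 11 intestine markers 7 rose and 0 fell (median 0.53), and of 10 body wall muscle markers 1 rose and 5 fell (median -0.21). Of 10 hypodermis markers 2 rose and 1 fell (median 0.34). Those that rose include *rol-6*, for which a marker plasmid is named above. No neuron marker of 12 and no embryo marker of 8 passed in limma. The part of these markers in the Argonaute values was not tested.

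For each of the 4 genes called in *hlh-30* ox, the genes whose log2 normalized reads followed it most closely over the 6 libraries were named as a description. For *csr-1* these were Y73B6BL.23 (Pearson's r = 0.998) and *hpo-35* (0.998), and for *rde-1* they were *ced-7* (0.997) and F53F1.6 (0.995). For *prg-1* they were ZK430.7 (0.995) and C54E4.2 (0.993), and for *wago-1* they were T10F2.5 (0.994) and *cysl-3* (0.992). With 6 libraries that share 3 groups, such values are common: of 15482 genes, between 298 and 422 had r over 0.9 with one of these genes.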

How the data were processed

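Whole-worm RNA from 6 samples was sequenced as paired-end reads after an NEBNext library preparation, and the submitters' processing notes name HISAT2, featureCounts and DESeq2; their versions and the genome build are not given in the sources used here. The values deposited by the authors, in 2 tables, are a signal: the reads of a gene divided by a size factor per library. In every library 100% of values were whole reads within 0.01 of a read once multiplied by 1 factor, and control reads were equal in both tables in all 21498 shared genes. Gene length is the other deposited column used. The tables also hold the authors' group means, log2 fold changes and p-values, which were not used. Strand-specific counting is not stated, so reads of overlapping genes are uncertain. The annotated spans of *csr-1*, *prg-1* and *ergo-1* overlap other coding genes, and those of *alg-1* and *alg-2* overlap genes of non-coding RNAs.

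log2 of the normalized reads plus 1 was tested with limma 3.58.1 in R 4.3.3, with a mean trend, on the 4 libraries of each comparison; for *hlh-30* ox against *hlh-30* ko, recovered reads were scaled over 6 libraries by the median of ratios. Fold changes are on that log2 scale. A gene was kept when 2 or more of its libraries reached 10 normalized reads, with Benjamini-Hochberg adjustment and a threshold of 0.05. With 2 libraries against 2, an exact permutation test of a single gene cannot go below 0.333. Alternatives were the pseudocount (0.1), the filter, TMM scaling, limma without the trend, all 6 libraries in one fit, edgeR 4.0.16 and DESeq2 1.42.0 on recovered reads, the threshold, the replicate block and each library left out. The tests were run on simulated counts first. The members and the lists were chosen with earlier results of these data known. Named are all members, the targeted gene and at most 4 called genes a list and comparison by size of change. Also named are the 2 genes most like each called member over the libraries. *ppw-2*, *vsra-1*, *wago-2* and *vit-2* were added after their values were seen. Of the cell type lists, counts, medians, sums, *rol-6* and *vit-2* are given. Of the names in the lists, 178 genes matched the tables, 40 matched through RefSeq locus tags or another name and 3 did not match. Coordinates are from Ensembl release 115 of WBcel235, which overlapped the position in the table for 99.93% of 18749 named genes. The columns of the knockout table are taken in its order, since the labels do not say which sample each holds.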

Additional observations from a re-analysis of the deposited data

How the results depend on the processing

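Of the 10 Argonaute genes, 4 were called in *hlh-30* ox against control, and 14.8% of all genes tested. The count was 4 with a pseudocount of 0.1 (14.5% of all genes) and with at least 10 normalized reads in every library (16.6%). It was also 4 with TMM scaling (14.8%) and with the replicate block (18.3%). It was 3 with edgeR (14.8%) and with DESeq2 (11.3%), and 5 at an unadjusted p (28.9%). It was 0 with no filter on low values, 0 in limma without the mean trend, 0 with all 6 libraries in one fit and 0 with a 2-fold threshold; the 2-fold threshold shows its own cause, and for the others the cause was not tested. The calls were lost when either control library was left out, a fit with a lone library in 1 group. With each library left out, the log2 fold change of *prg-1* lay between -0.23 and -0.16 and that of *wago-1* between -0.18 and -0.14. The replicate numbers are shared by label only (correlation of the deviations of the first libraries 0.0273), so the block is no pairing; for the knockout, no paired analysis was possible because its columns carry no sample's number. The adjusted p of *csr-1*, *prg-1* and *rde-1* was under 0.05 in 6 of 9 alternatives, up to 0.201, 0.358 and 0.180, and that of *wago-1* in 4 of 9, up to 0.525. In *hlh-30* ko against control the count of 0 became 3 at an unadjusted p, and leaving out 1 library gave 0 to 7. In *hlh-30* ox against *hlh-30* ko it was 0, and leaving out 1 library gave 0 to 3, with 3 (and 8.98% of all genes) without the first knockout library.

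Directions turned only in genes that were not called. With a library left out, the log2 fold change of *nrde-3* in *hlh-30* ox lay between -0.022 and 0.13. In *hlh-30* ko it lay between -0.44 and 0.17 for *alg-1*, -0.44 and 0.034 for *ergo-1*, -0.32 and 0.20 for *hrde-1*, -0.22 and 0.12 for *wago-1* and -0.033 and 0.13 for *wago-4*. In *hlh-30* ox against *hlh-30* ko it lay between -0.29 and 0.33 for *alg-1*, -0.16 and 0.50 for *alg-2*, -0.042 and 0.17 for *prg-1*, -0.11 and 0.35 for *ergo-1*, -0.30 and 0.20 for *hrde-1* and -0.27 and 0.054 for *wago-1*. There *alg-1*, at 0.020, was also -0.0088 with TMM scaling, -0.038 with edgeR and -0.0166 with DESeq2. The median log2 fold change of all genes lay between -0.021 and 0.028 under every scaling. With 2 libraries a group, the spread within the knockout limits what that comparison can show.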
